A study of Mus musculus with 9 samples.

Results

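Fibroblasts from mouse embryos homozygous for the ∆G allele of Rb1 (Rb ∆G/∆G, called ∆G) were compared with fibroblasts of wild-type Rb1 (Rb +/+, called WT), on 3 arrays of each genotype. These 6 arrays were chosen by the genotype in their labels, out of 9 arrays in the study. The other 3 carried RNA of Rb -/- fibroblasts (null) and enter below as a reference and for the shared estimate of the spread. Cells of every genotype were plated at the same density on 15 cm dishes, and after 24 h their medium was replaced by one holding 0.1% serum, which normally brings fibroblasts to rest. The series text describes the genotypes as matched by litter, and the labels give neither the litter of an array, the number of embryos, their age nor the passage of the cells. Every p-value therefore rests on the variation among these arrays, part of which may be technical. Total RNA was measured on whole-transcript gene arrays as log2 RMA signal, so a difference of 1 is a factor of 2. Each of 19938 genes with a single symbol, the whole set of the series, was read from the probe set with the highest mean over the 9 arrays.

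The retinoblastoma protein binds the activation domain of E2F transcription factors through a cleft of its pocket and thereby silences their target genes in resting cells. The ∆G allele alters that contact site and leaves the rest of the protein, whereas null cells lack functional protein. E2F proteins and their DP partners act at the promoters of genes for DNA replication at the start of S phase. Genes of mitosis are switched on later, largely through a promoter element named CHR, which is bound by the MuvB complex.

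Array medians lay between 6.33 and 6.401. On the first principal component, which carried 51.8% of the variance, the WT arrays lay at −21.3 to −14.7 and the null arrays at 24.2 to 27.4. ∆G arrays 1 and 2 lay at −13.9 and −11.5, beside WT, and ∆G array 3 stood apart at −0.30. The 14 fibroblast markers were bright in both genotypes and held no call by limma, and none had an unadjusted p under 0.05. Their mean was 10.90 to 11.16 on the WT arrays and 10.79 to 10.99 on the ∆G arrays. Markers of endothelial, epithelial, skeletal muscle and erythroid cells held no call and no unadjusted p under 0.05 either, and of 8 neural markers 1 was higher and 1 lower at that level. WT array 3 had a female pattern (Xist, the RNA that silences an X chromosome, at 11.4, against 4.31 and 4.45 on the other WT arrays and 4.24 to 4.30 in ∆G). The null arrays were female throughout, so in ∆G against null the sex pattern and the genotype cannot be told apart.

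Of the 19938 genes, 162 (0.813%) differed between ∆G and WT at a limma adjusted p under 0.05, 120 higher (0.602%) and 42 lower (0.211%). The rises had a median of 0.62 and a range of 0.34 to 1.46, and the falls had a median size of 0.60 and a range of 0.33 to 1.43. Genes for copying DNA stood at the top of the rises. Of 81 measured genes in 4 lists on DNA replication, 29 rose and none fell, 77 were above 0, and the median difference was 0.38, against −0.02 over all genes. In bulk RNA a larger share of cells in S phase and more RNA per cell cannot be told apart. The 42 gene lists examined held 750 of the 19938 tested genes, so most genes belong to none of them. Of the 42 falls 39 belonged to none, and 72 of the 120 rises did not either. Single arrays bore on these counts. Without WT array 2, 51 genes rose, 11 fell and 19 replication genes rose, and without ∆G array 3 there were 143 rises and 109 falls. Without ∆G array 1, ∆G array 2 and null array 1 the rises numbered 66, 61 and 74 and the falls 17, 9 and 17. Without WT array 1 and null array 3 there were 17 and 25 falls. Without WT array 3, which leaves a comparison within 1 sex pattern, 89 genes rose and 40 fell. A fit of the 6 WT and ∆G arrays alone, in which null does not enter the spread, called 95 rises and 25 falls, and a fit with the level of Y-linked genes as a covariate called 88 and 40. In all 9 fits that left out 1 array, 44 of the 120 rises, 6 of the 42 falls and 17 of the 29 rises among replication genes were called.

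**Figure D1:**
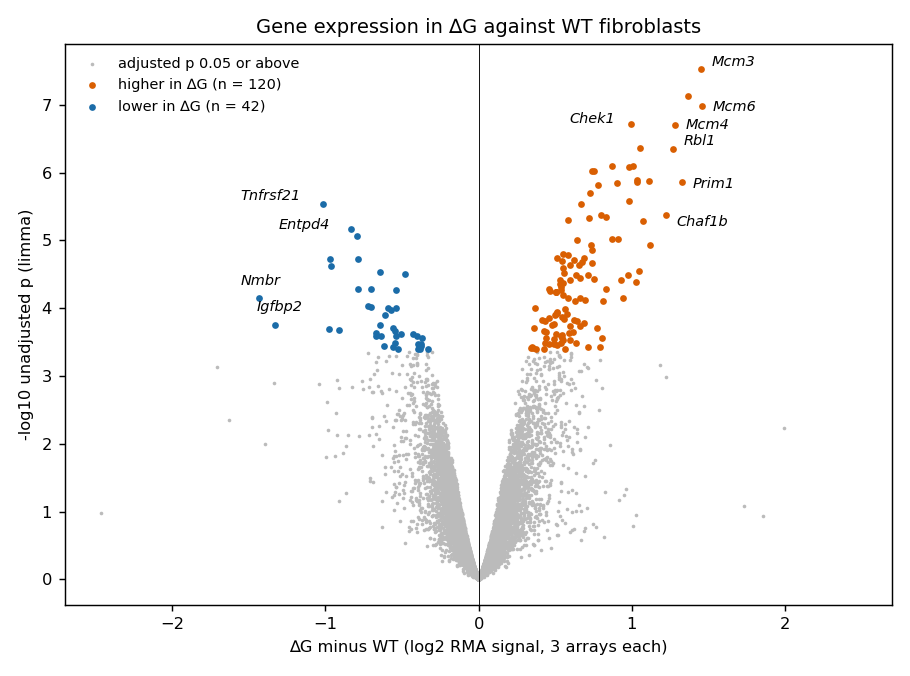
Difference between ∆G and WT for each of 19938 genes (horizontal axis, log2 signal, 3 arrays a group) against the −log10 of the unadjusted limma p (vertical axis), with the 120 genes that rose in orange and the 42 that fell in blue. Mcm3, Mcm6, Mcm4 and Rbl1 lie at the upper right, Tnfrsf21 and Entpd4 lead the falls by p, and Nmbr and Igfbp2 lie farthest to the left among the calls.

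The helicase that unwinds DNA at origins held the largest rises. Mcm6, a subunit of that ring, had signals of 7.76, 7.36 and 7.90 on WT arrays 1, 2 and 3 and of 9.17, 8.99 and 9.23 on the ∆G arrays, a rise of 1.46 (SE 0.12, limma adjusted p = 0.00069). Mcm3 had 7.22, 6.87 and 6.85 in WT and 8.34, 8.39 and 8.56 in ∆G, a rise of 1.45 (SE 0.11, limma adjusted p = 0.0006). The lowest ∆G array lay more than 1 log2 unit above the highest WT array for both genes. In null the same genes stood higher again, at 9.77 to 9.89 for Mcm6 and 8.81 to 9.02 for Mcm3, and ∆G lay below null in both (differences of −0.70 and −0.46, limma adjusted p = 0.0059 and 0.025; 8.71% of all genes differed between ∆G and null). Mcm2, Mcm4 and Mcm7 rose by 1.36, 1.28 and 1.01. Mcm4 differed little from null (−0.29, limma adjusted p = 0.15 for ∆G against null). Mcm5, the sixth subunit, rose by 0.78 with a wider spread (7.72, 7.12 and 7.32 in WT, 8.04, 8.05 and 8.39 in ∆G, limma adjusted p = 0.035). Its call was lost without any one of WT arrays 2 and 3, the 3 ∆G arrays and null arrays 1 and 3 (adjusted p up to 0.13, without WT array 2), from the 6 arrays alone (0.081) and with the Y-linked covariate (0.088). The mean over the 6 subunits was 8.01, 7.61 and 7.76 on the WT arrays and 8.94, 8.93 and 9.17 on the ∆G arrays, so the groups did not overlap and array 3 was the highest of ∆G.

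The list of origin recognition and loading held 19 genes, among them the 6 MCM subunits described above. Of the 19, 8 rose and none fell, with a median of 0.39. Outside the MCM ring the rises were Cdt1 and Orc6 only. Cdt1, which brings the MCM ring to the origin, rose by 0.87 (6.97, 6.70 and 6.71 in WT, 7.55, 7.58 and 7.87 in ∆G, limma adjusted p = 0.0059), and Orc6, an origin recognition subunit, by 0.48. The call of Orc6 was lost without any one of WT arrays 2 and 3, the 3 ∆G arrays and null array 1 (limma adjusted p up to 0.13, without WT array 2), from the 6 arrays alone (0.07) and with the Y-linked covariate (0.099). Orc1 was 0.72 above WT with arrays that did not overlap (5.49, 5.27 and 5.38 against 5.82, 6.0 and 6.46; 7.05% of all genes were higher without overlap) and missed the threshold (limma adjusted p = 0.068). Cdc6, the partner of Cdt1 in loading, lay at 5.82 and 5.93 on ∆G arrays 1 and 2, within the WT range of 5.82 to 5.99, and at 6.43 on ∆G array 3 (difference 0.17, limma adjusted p = 0.73). In null Cdc6 was 0.85 above WT. Orc1 and Cdc6 were picked for this description after their values were seen.

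To set these changes beside promoter sequence, the window from 250 bases before to 50 after each gene start in RefSeq (GRCm38.p6) was searched on both strands for an E2F motif in 4 forms, TTTCCCGC, TTTCGCGC, TTTGCCGC and TTTGGCGC. The 150 bases before the start are given 5′ to 3′ on the strand of the gene for 5 genes that rose and for the gene with the largest fall, with E2F motif matches in capitals. They were picked after the matches were seen, as 1 case each of helicase, pocket protein, chromatin, polymerase and unlisted genes.
Mcm6 (chr1:128359706-128359855, minus strand): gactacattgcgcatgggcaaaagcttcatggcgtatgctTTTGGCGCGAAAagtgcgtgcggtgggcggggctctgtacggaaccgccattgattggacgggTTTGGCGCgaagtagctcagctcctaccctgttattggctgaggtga
Rbl1 (chr2:157204535-157204684, minus strand): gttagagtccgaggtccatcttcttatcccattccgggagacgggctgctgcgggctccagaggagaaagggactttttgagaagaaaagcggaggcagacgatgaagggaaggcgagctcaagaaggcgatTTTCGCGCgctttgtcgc
Hells (chr19:38930840-38930989, plus strand): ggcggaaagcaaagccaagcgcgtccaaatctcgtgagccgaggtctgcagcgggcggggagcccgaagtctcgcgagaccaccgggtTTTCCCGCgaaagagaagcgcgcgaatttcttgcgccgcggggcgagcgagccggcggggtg
Cdca7 (chr2:72476069-72476218, plus strand): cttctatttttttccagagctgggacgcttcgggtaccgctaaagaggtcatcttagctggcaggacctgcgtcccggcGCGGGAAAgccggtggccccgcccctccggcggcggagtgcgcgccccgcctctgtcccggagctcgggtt
Pola1 (chrX:93632156-93632305, minus strand): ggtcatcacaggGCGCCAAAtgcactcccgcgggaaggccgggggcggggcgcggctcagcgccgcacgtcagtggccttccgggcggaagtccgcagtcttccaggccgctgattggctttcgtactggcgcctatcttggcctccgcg
Nmbr (chr10:14759797-14759946, plus strand): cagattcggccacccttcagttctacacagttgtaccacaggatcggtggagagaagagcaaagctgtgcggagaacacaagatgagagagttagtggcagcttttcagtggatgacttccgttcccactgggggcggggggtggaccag
Mcm6 holds 3 matches, of which the first 2 share bases, and Rbl1, Hells, Cdca7 and Pola1 hold 1 each, while the Nmbr stretch holds none. In Cdca7 and Pola1 the capitals are the motif read on the opposite strand. In Rbl1 the match lies close to the start, and in Pola1 near the far end of the stretch. Cdca7, a partner of Hells that stands in none of the lists, rose by 1.02 and lost its call without WT array 2 (limma adjusted p = 0.072).

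The E2F motif was found in 541 of 15563 tested genes with a window (3.48%) and in 30 of the 99 risen genes with one (30.3%, exact 95% interval 21.5 to 40.4%). None of the 33 fallen genes with a window held it, which allows a share of up to 9.09%. These intervals cover counting error only. Among risen genes the motif stood in 10 of 21 that belonged to the replication lists (47.6%) and in 20 of 78 that did not (25.6%). The form TTTCCCGC alone was in 18.2% of risen genes and 1.75% of all genes, and TTTGCCGC was in no risen gene. Risen genes had windows richer in G and C, with a mean of 62.3% against 56.9% over all genes. When windows were split into 3 classes by G and C content, the motif stood in the richest class in 16 of 51 risen genes (31.4%) and in 5.13% of all genes, and in the middle class in 32.4% and 4.03%. Matches lay at a median of 48.5 bases before the start in risen genes and 88.0 bases before it over all genes. The GC box GGGCGG was in 71.7% of risen genes, 51.5% of fallen genes and 53% of all genes; it can share bases with a TTTCCCGC match on the opposite strand. The CCAAT box was in 44.4%, 48.5% and 41.7%. A match describes letters and not a bound site.

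**Figure D2:**
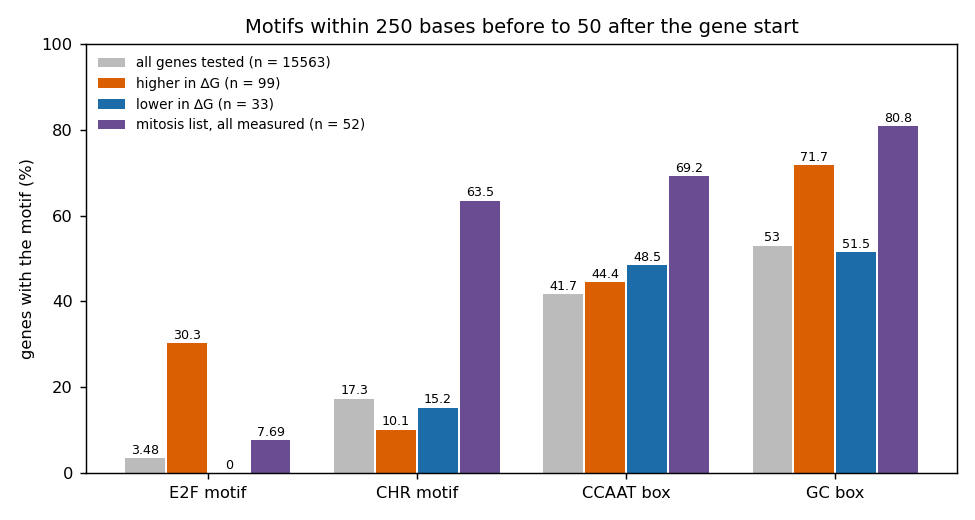
Share of genes (vertical axis, percent) whose window from 250 bases before to 50 after the start holds an E2F motif, the CHR motif, a CCAAT box or a GC box, for all genes tested, genes that rose, genes that fell and the mitosis list. The E2F motif stands in 30.3% of risen genes against 3.48% of all genes, and the CHR motif in 63.5% of the mitosis list against 10.1% of risen genes.

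Genes that fire origins and protect the fork rose in 7 of 14 cases, with none lower and a median of 0.52. Tipin and Timeless, which form one complex at the fork, both rose: Tipin had 7.54, 7.34 and 7.42 in WT and 8.34, 8.43 and 8.70 in ∆G (1.06, limma adjusted p = 0.0013), and Timeless rose by 0.75. Wdhd1, which ties the helicase to polymerase alpha, rose by 0.98, Topbp1, an activator of origin firing, by 0.78 and the GINS subunit Gins2 by 0.64. Those 5 genes kept their calls whichever single array was left out. Gins1 and Cdc7, a GINS subunit and the kinase that phosphorylates the MCM ring, rose by 0.69 and 0.66. Gins1 lost its call without any one of WT arrays 2 and 3, the 3 ∆G arrays and null array 1, and Cdc7 without any one of the 3 WT arrays, ∆G arrays 1 and 2 and null array 1 (limma adjusted p up to 0.14 and 0.12, both without WT array 2). Gins1 was not called from the 6 arrays alone either (limma adjusted p = 0.052), nor Gins1 and Cdc7 with the Y-linked covariate (0.089 and 0.092). Cdc45, Ticrr and Clspn, picked after their values were seen, lay 0.38, 0.39 and 0.23 above WT without passing (limma adjusted p = 0.15, 0.46 and 0.53), and all of them passed in null, with rises of 0.81, 1.21 and 1.08.

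The synthesis machinery was the longest of these lists, with 12 rises among 30 genes, all 30 above 0, and a median of 0.44. Prim1, the catalytic primase subunit, had 6.67, 6.09 and 6.35 in WT and 7.60, 7.53 and 7.95 in ∆G (1.32, SE 0.14, limma adjusted p = 0.0017). Pola1, the catalytic subunit of polymerase alpha, had 6.70, 5.99 and 6.58 in WT and 7.5, 7.46 and 7.66 in ∆G (1.12, limma adjusted p = 0.0067). Both genes were below null, with differences of −1.04 and −0.89 (limma adjusted p = 0.0017 and 0.0049). The other subunits of that complex rose too, Prim2 by 0.51 and Pola2 by 0.59, and Pola2 was no longer called without WT array 2 (limma adjusted p = 0.06). Pole and Pole2, of the leading strand polymerase, rose by 0.98 and 0.93, and Pold1, of the lagging strand polymerase, by 0.75. Without WT array 2 neither Pole nor Pole2 was called (limma adjusted p = 0.062 and 0.06), Pole also not without ∆G array 2 (0.051), and Pold1 not without ∆G array 1 (0.06). Pcna, the sliding clamp, rose by 0.83 (9.45, 8.95 and 9.32 against 10.11, 9.91 and 10.19) and lost its call without ∆G array 1 (limma adjusted p = 0.064). Lig1, the ligase that seals Okazaki fragments, rose by 0.83, Rpa1, which coats single strands, by 0.67 and Rfc2, a clamp loader subunit, by 0.58, and none of these 3 lost its call. Dscc1, of the alternative clamp loader, rose by 0.49 and lost its call without any one of WT arrays 2 and 3, ∆G arrays 1 and 2 and null arrays 1 and 3 (limma adjusted p up to 0.14, without WT array 2), from the 6 arrays alone (0.071) and with the Y-linked covariate (0.095).

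Enzymes that supply nucleotides moved least among the replication lists. Rrm1 and Dtymk rose by 0.66 and 0.50 out of 18 genes, with a list median of 0.31. Rrm1, the large subunit of ribonucleotide reductase, was not called without WT array 2 (limma adjusted p = 0.065), nor was Dtymk, thymidylate kinase, without WT array 2 or ∆G array 1 (0.083 and 0.069). Rrm2, the regulated small subunit of the reductase, had 8.67, 8.38 and 8.44 in WT, 9.02, 9.12 and 9.31 in ∆G and 9.75 to 10.38 in null. Its groups did not overlap, and the difference of 0.65 to WT missed the threshold (limma adjusted p = 0.071), though it passed from the 6 arrays alone (0.041) and after repeated quantile normalisation (0.045). Over the 4 lists together the mean signal was 7.54, 7.30 and 7.42 on the WT arrays, 7.85, 7.80 and 8.06 on the ∆G arrays and 8.40, 8.45 and 8.27 on the null arrays, 3 ranges without overlap. In null against WT, where 8.38% of all genes rose, 75 of the 81 rose with a median difference of 0.91. Tested directly against null, 52 of the 81 were lower in ∆G (4.27% of all genes were) and none was higher.

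**Figure D3:**
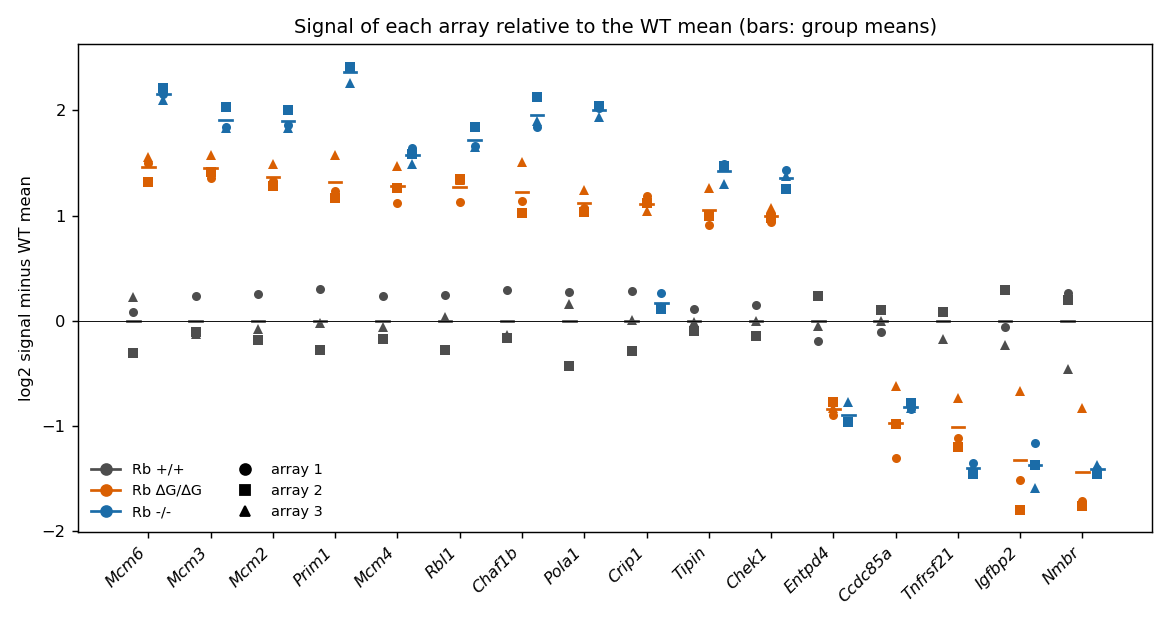
Signal of 16 genes on each array, as log2 signal minus the WT mean of the gene (vertical axis), for WT (grey), ∆G (orange) and null (blue), with circles, squares and triangles for arrays 1, 2 and 3 and bars for group means. For Mcm6, Prim1 and Pola1 the ∆G arrays lie between WT and null, for Crip1 only the ∆G arrays are raised, and for Nmbr and Igfbp2 ∆G array 3 lies nearer to WT than the other ∆G arrays.

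Of 18 histone chaperones and replication-linked chromatin enzymes, 5 rose and none fell, with a median of 0.41. Chaf1b and Chaf1a, subunits of the chromatin assembly factor that places histones on new DNA, rose by 1.22 and 0.87. Chaf1b had 7.36, 6.91 and 6.93 in WT and 8.20, 8.09 and 8.57 in ∆G, and Chaf1a 7.09, 6.98 and 7.07 against 7.94, 7.89 and 7.92. Within each genotype the arrays of Chaf1a lay closer together than those of Chaf1b. Hells, a remodeller that aids DNA methylation, rose by 1.03 (7.21, 6.72 and 6.90 against 7.95, 7.87 and 8.10), and Dnmt1, which copies methylation to the new strand, by 0.98. Hat1, which acetylates new histones, rose by 0.64, and its call was lost without any one of WT arrays 1 and 2, the 3 ∆G arrays and the 3 null arrays (limma adjusted p up to 0.15, without WT array 2) and from the 6 arrays alone (0.081). The replication-dependent histone genes themselves held no limma call among 14, with a median of 0.15. At an unadjusted p under 0.05, 1 was higher and 4 were lower (5.3% and 6.45% of all genes were). The median of these histone genes was 0.36 without WT array 1 and without ∆G array 2, 0.10 without WT array 2, −0.03 without WT array 3 and −0.12 without ∆G array 3.

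Among 32 genes of recombination repair, crosslink repair and the checkpoint, 4 rose, none fell and the median was 0.25, or 0.14 without ∆G array 3. Chek1, the checkpoint kinase that answers stalled forks, had 7.39, 7.09 and 7.24 in WT and 8.18, 8.22 and 8.31 in ∆G (1.00, limma adjusted p = 0.0008). Mms22l and Brca2, which act in recombination at broken forks, rose by 0.74 and 0.73. These 3 kept their calls whichever array was left out. Fancl, the ligase of the Fanconi anaemia pathway, rose by 0.50 and lost its call without any one of WT arrays 2 and 3, the 3 ∆G arrays and null arrays 1 and 3 (limma adjusted p up to 0.16, without WT array 2), from the 6 arrays alone (0.083) and with the Y-linked covariate (0.11). Of 5 mismatch repair genes Msh6, a subunit of the mismatch sensor, rose by 0.74 (7.14, 7.16 and 7.25 against 7.86, 7.95 and 7.97, limma adjusted p = 0.0016). Pms1 rose by 0.36, a call lost without every single array but null array 2 (limma adjusted p up to 0.14, without WT array 2), from the 6 arrays alone (0.0785) and with the Y-linked covariate (0.059). Cohesin and condensin held 1 rise among 22 genes, Stag1 by 0.34, which among the fits without 1 array was called only without ∆G array 3 (limma adjusted p up to 0.18 in the others). It was also not called from the 6 arrays alone (0.10), with the Y-linked covariate (0.11), after median centring (0.059) or after repeated quantile normalisation (0.06). With a block for the array number Stag1 was not called either (limma adjusted p = 0.073).

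The RB and E2F family itself held 2 calls, both rises. Rbl1, the gene of the pocket protein p107 and a known E2F target, had 7.10, 6.57 and 6.88 in WT, 7.97, 8.19 and 8.19 in ∆G and 8.51 to 8.69 in null (1.27, SE 0.12, limma adjusted p = 0.0013). Tfdp1, the DP partner of most E2Fs, rose by 0.54 (9.41, 9.42 and 9.32 against 9.96, 9.87 and 9.94), and its call was lost without WT array 2 or ∆G array 1 (limma adjusted p = 0.059 and 0.068). The remaining 11 of 13 members held no call. At an unadjusted p under 0.05, 6 of the 13 were higher and 1 was lower (5.3% and 6.45% of all genes were). Without overlap, 4 were higher (7.05% of all genes were). The list median was 0.23, or 0.14 without WT array 1 and 0.30 without ∆G array 2. Rb1, which was lower in null than in WT (−0.77, limma adjusted p = 0.0011), lay at 8.93, 9.16 and 9.16 in WT, 9.53, 9.76 and 9.54 in ∆G and 8.18, 8.58 and 8.19 in null. Its WT and ∆G arrays did not overlap, and the difference of 0.53 missed the threshold (limma adjusted p = 0.075), though it passed without null array 2 (0.03). E2f1, E2f2 and E2f3, the activating E2Fs, picked after their values were seen, differed from WT by 0.23, 0.01 and −0.01 (limma adjusted p = 0.66 or higher), and E2f8, a repressing member, by 0.39 in ∆G and by 1.58 in null.

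Cyclin E and its kinase were the G1 regulators that rose. Ccne1 had 8.87, 8.64 and 8.59 in WT and 9.36, 9.32 and 9.49 in ∆G (0.69, limma adjusted p = 0.0089), a call kept whichever array was left out. Cdk2 rose by 0.60 (8.20, 8.06 and 8.19 against 8.67, 8.68 and 8.89) and was not called without WT array 2 (limma adjusted p = 0.056). Ccne2, the second cyclin E, lay 0.77 above WT and missed the threshold (7.03, 7.02 and 7.34 in ∆G against 6.73, 6.04 and 6.32, limma adjusted p = 0.085), while in null it was 1.86 above WT. Of 13 such G1 genes 2 rose and none fell (median 0.15, or 0.10 without WT array 3). At an unadjusted p under 0.05, 6 were higher and 1 was lower (5.3% and 6.45% of all genes were). Without overlap, 5 were higher and 1 was lower (7.05% and 9.48% of all genes were). The 6 CDK inhibitors held no limma call, with 1 higher at an unadjusted p under 0.05 (median 0.13, or 0.08 without ∆G array 3).

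The mitosis genes held no call. Of 60 measured genes for G2/M cyclins, mitotic kinases, kinetochores, kinesins and cytokinesis, none was called in ∆G against WT by limma. At an unadjusted p under 0.05, 5 were higher (5.3% of all genes were), and none was higher without overlap (7.05% of all genes were). The median was 0.22, and 57 of the 60 were above 0, as were 8627 of all 19938 genes. Their mean signal was 7.20 and 7.11 on ∆G arrays 1 and 2, between the WT arrays (7.48, 6.92 and 6.98), and 7.75 on ∆G array 3, above all 3 WT arrays. The SD of that mean was 0.31 among WT and 0.34 among ∆G arrays, against 0.12 and 0.14 for the replication lists. In null 59 of the 60 rose (8.38% of all genes did), with a median of 0.95, and the null arrays had means of 7.93 to 8.16. In the direct test 29 of the 60 were lower in ∆G than in null (4.27% of all genes were). The 4 members with the lowest p were Cenpk, Spc25, Ckap2 and Tpx2, with differences of 0.44, 0.34, 0.24 and 0.46 to WT (limma adjusted p = 0.23, 0.39, 0.40 and 0.40). Cdk1, the mitotic kinase, lay at 8.32, 7.75 and 7.88 in WT, 8.16, 7.88 and 8.62 in ∆G and 8.68 to 8.97 in null. Plk1, a mitotic kinase that was also picked after its values were seen, lay at 8.43, 7.80 and 7.64, at 8.08, 7.90 and 8.75 and at 9.03 to 9.29. For both genes ∆G arrays 1 and 2 lay within the WT range and ∆G array 3 above it. In the mitosis list 33 of 52 genes with a window held the CHR motif TTTGAA (63.5%), against 17.3% of all genes and 10.1% of risen genes, and 4 of 52 held the E2F motif (7.69%).

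**Figure D4:**
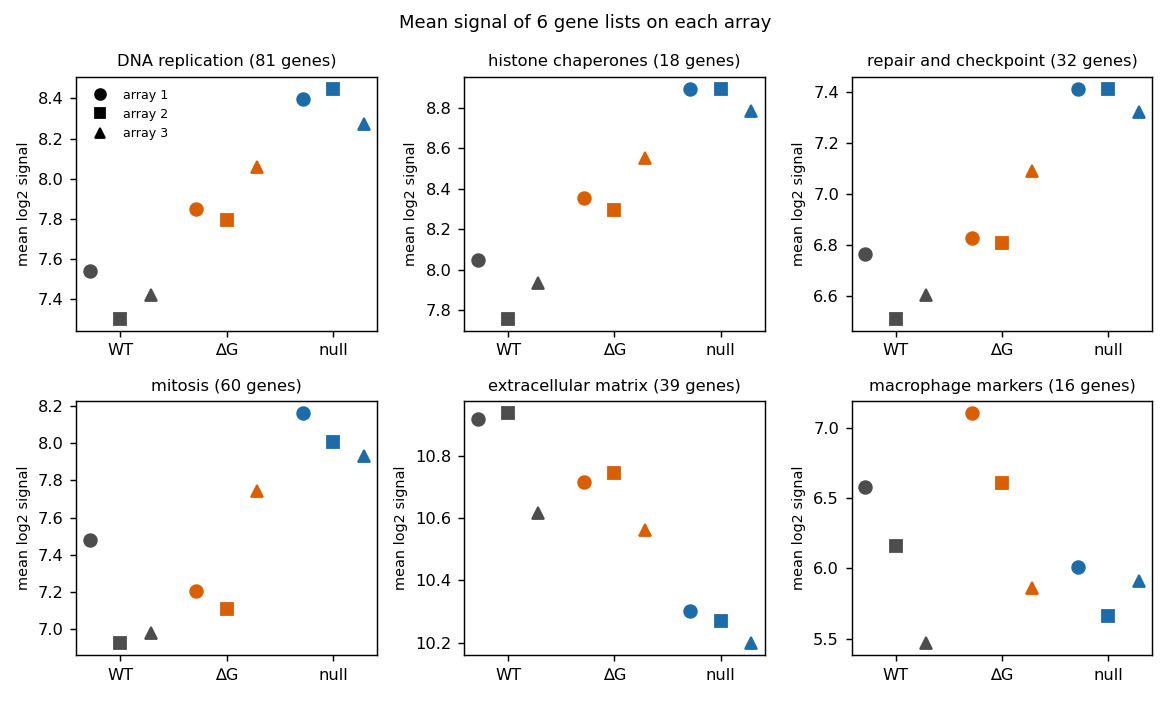
Mean log2 signal of 6 gene lists (vertical axes, each with its own scale) on the WT (grey), ∆G (orange) and null (blue) arrays, with circles, squares and triangles for arrays 1, 2 and 3. Replication and chaperone genes separate the 3 genotypes, mitosis genes of ∆G arrays 1 and 2 lie within the WT range and those of ∆G array 3 above it, and macrophage markers spread widely within WT and ∆G.

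The median of the mitosis list moved with single arrays in both directions. It was 0.42 without WT array 1, 0.36 without ∆G array 2 and 0.30 without ∆G array 1, and it was 0.13 without WT array 3, 0.11 without WT array 2 and 0.03 without ∆G array 3. The median of the replication lists ran from 0.30 (without ∆G array 3) to 0.44 (without ∆G array 2) and was 0.43 without WT array 1, so without that array both medians were close. The MuvB core and its activators held no limma call among 9 genes, with 2 higher at an unadjusted p under 0.05 (5.3% of all genes were). Their median was 0.16, or 0.09 without WT array 2 and 0.01 without ∆G array 3. Mybl1, an activator of that complex, was 0.54 above WT (7.88, 8.0 and 7.86 against 8.39, 8.67 and 8.30, limma adjusted p = 0.18). Lamins and nuclear envelope genes, and nuclear pore genes and importins, held no limma call among 14 and 25. At an unadjusted p under 0.05, 3 and 6 were higher (5.3% of all genes were). Higher without overlap were 2 and 10 (7.05% of all genes were). The medians were 0.13 and 0.09. Without ∆G array 3 the first was 0.03, and without WT array 2 or 3 it was 0.08.

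The largest falls were in the genes of a receptor and of a growth factor binding protein. Nmbr, a receptor for neuromedin B, had 7.18, 7.11 and 6.46 in WT and 5.2, 5.16 and 6.09 in ∆G (−1.43, SE 0.23, limma adjusted p = 0.017). Igfbp2, which binds insulin-like growth factors, had 11.24, 11.60 and 11.07 against 9.78, 9.50 and 10.63 (−1.33, SE 0.24, limma adjusted p = 0.033). For both genes ∆G array 3 was the highest of its group, and the groups still did not overlap (9.48% of all genes were lower without overlap). Nmbr lost its call without any one of WT arrays 1 and 2 and ∆G arrays 1 and 2, and Igfbp2 also without null array 1 or 3 (limma adjusted p up to 0.097 and 0.14, both without WT array 2). Neither was called from the 6 arrays alone (limma adjusted p = 0.065 and 0.078), nor Igfbp2 with the Y-linked covariate (0.055) or with a block for the array number (0.054). Against null, Nmbr and Igfbp2 differed by −0.02 and 0.05 (limma adjusted p = 0.97 and 0.94). Tnfrsf21, a death receptor, had 9.36, 9.35 and 9.09 in WT and 8.15, 8.07 and 8.54 in ∆G (−1.01, SE 0.12, limma adjusted p = 0.0026).

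Tnfrsf21 and 5 more falls kept their calls whichever single array was left out. Entpd4, a nucleotide hydrolase of intracellular membranes, had 9.81, 10.24 and 9.95 in WT and 9.10, 9.22 and 9.16 in ∆G (−0.84, limma adjusted p = 0.0046). Dkk3, a secreted protein of the Dickkopf family, had 10.59, 10.81 and 10.47 against 9.73, 9.73 and 10.05 (−0.78, limma adjusted p = 0.0089). Ccdc85a, Tmem260 and Tcp11l2 fell by 0.97, 0.79 and 0.64 on the log2 scale. The ∆G arrays of Entpd4 lay within 0.12 of each other, and those of Ccdc85a were spread from 5.45 to 6.12. In null, Entpd4 and Tmem260 lay at the ∆G level (differences of 0.06 and 0.10, limma adjusted p = 0.79 and 0.61), while Dkk3 was lower in null than in ∆G (0.47, limma adjusted p = 0.024).

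Srpx2 and Htra1, a secreted ligand and a secreted protease, were also among the 20 largest falls. They fell by 0.78 and 0.70, Fibin, a secreted protein, by 0.65 and Rspo1, an enhancer of Wnt signalling, by 0.67 on the log2 scale. Srpx2 lost its call without WT array 1 or ∆G array 2 (limma adjusted p = 0.053 for both), and Htra1 without any one of WT arrays 1 and 2 and ∆G arrays 1 and 2 (up to 0.092, without ∆G array 2). Fibin lost its call without any one of the 3 WT arrays, ∆G array 2 and null arrays 1 and 3, and Rspo1 without any one of WT arrays 1 and 2, ∆G arrays 1 and 2 and null arrays 1 and 3. Their adjusted p reached 0.14 (without WT array 2) and 0.15 (without ∆G array 2). Htra1, Fibin and Rspo1 were not called from the 6 arrays alone (limma adjusted p = 0.066, 0.085 and 0.069), nor Srpx2 and Fibin with the Y-linked covariate (0.051 and 0.07). Srpx2, Htra1 and Fibin were lower still in null, by 0.85, 0.87 and 1.11 relative to ∆G (limma adjusted p = 0.0022, 0.0017 and 0.00045).

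Gpm6a, Slitrk3 and Nlgn1, known as membrane proteins of neurons, fell by 0.98, 0.91 and 0.70 on the log2 scale. Slitrk3 had 6.71, 6.84 and 6.63 in WT and 5.60, 5.53 and 6.32 in ∆G, again with ∆G array 3 nearest to WT. Gpm6a and Slitrk3 lost their calls without all but 2 of the single arrays (called without WT array 3 or null array 2 for Gpm6a, and without ∆G array 3 or null array 2 for Slitrk3), with a limma adjusted p of up to 0.14 without WT array 2. Both were not called from the 6 arrays alone (0.069 and 0.09), nor Slitrk3 with the Y-linked covariate (0.078). Nlgn1 lost its call without WT array 1, ∆G array 1 or ∆G array 2 (up to 0.069). Ptprq, a receptor phosphatase, fell by 0.96 (8.54, 8.93 and 9.04 against 7.80, 7.84 and 7.98) and was not called without WT array 2 or ∆G array 2 (limma adjusted p = 0.057 and 0.0503).

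**Figure D5:**
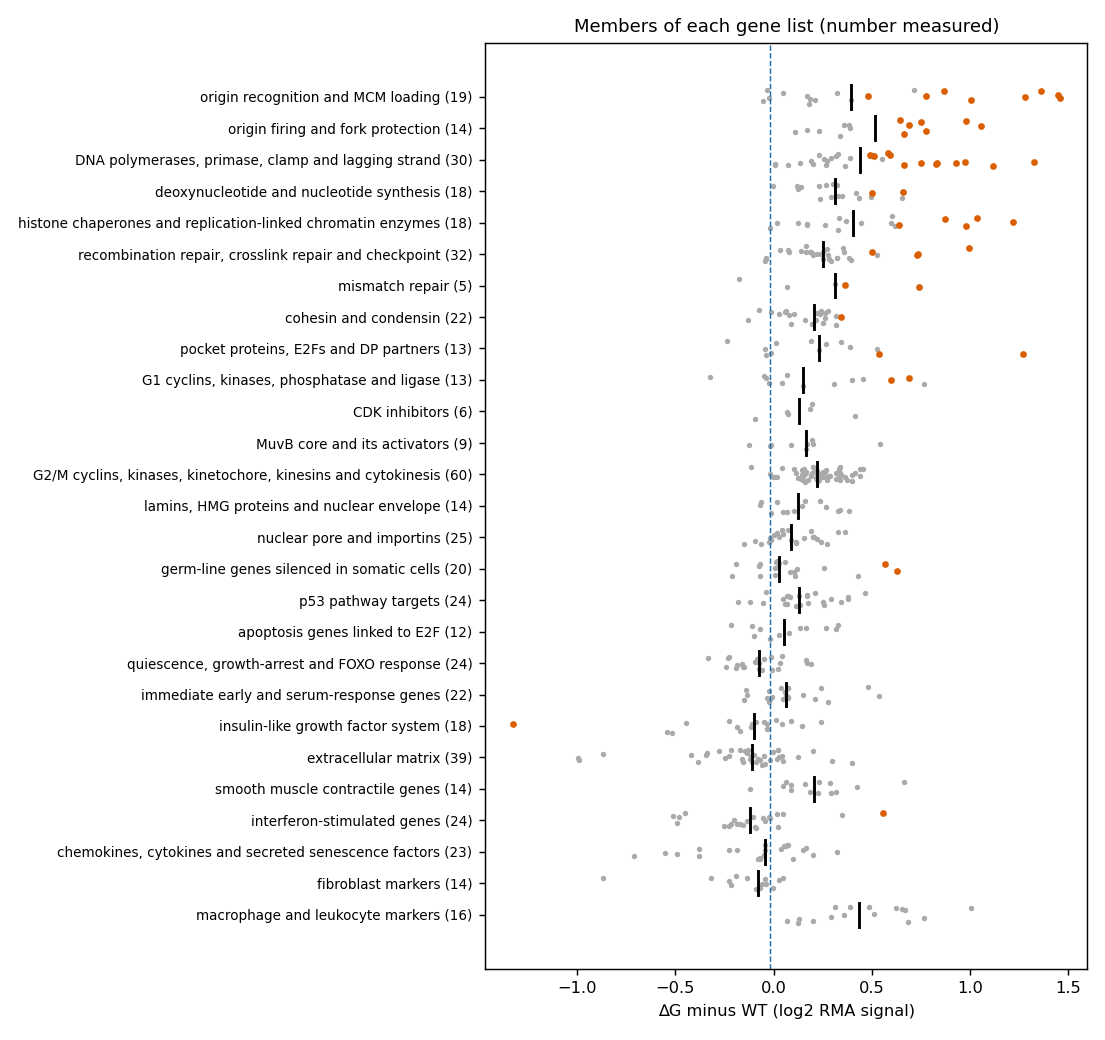
Difference between ∆G and WT (horizontal axis, log2 signal) for each measured member of 27 gene lists, with called genes in orange, the others in grey, the list median as a black bar and the median of all genes as a dashed line. Orange points crowd the replication, chaperone and repair lists, the 60 mitosis genes hold none, and the only orange point far to the left is Igfbp2.

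Extracellular matrix genes, 39 in number, held no limma call, with a median of −0.11, and 1 was higher and 6 were lower at an unadjusted p under 0.05 (6.45% of all genes were). The median was −0.03, −0.04, −0.06 and −0.05 without WT array 2, WT array 1, ∆G array 1 and ∆G array 3, and −0.22 without WT array 3. Their means were 10.92, 10.94 and 10.62 on the WT arrays and 10.71, 10.74 and 10.56 on the ∆G arrays, which overlap. Against null, 15 of the 39 were higher in ∆G (4.44% of all genes were) and none was lower. Smooth muscle contractile genes held no limma call among 14 (2 were higher at an unadjusted p under 0.05) and had a median of 0.21, or 0.05 without WT array 3. Cnn1, a calponin of smooth muscle, had 9.39, 9.67 and 9.0 in WT, 10.13, 10.04 and 9.88 in ∆G and 7.98 to 8.93 in null. It was 0.66 above WT (limma adjusted p = 0.24) and 1.46 above null (limma adjusted p = 0.0028). The lists of p53 targets (24 genes), quiescence and FOXO response (24), immediate early genes (22), apoptosis genes linked to E2F (12), TGF-beta signalling (23), cholesterol synthesis (20), glycolysis (21) and unfolded protein stress (19) held no limma call, with medians between −0.08 and 0.13 (between −0.12 and 0.16 with any 1 array left out). At an unadjusted p under 0.05 they held 6, 0, 3, 3, 4, 1, 1 and 2 higher and 0, 3, 0, 0, 2, 1, 6 and 0 lower genes, in that order. Over all genes 5.3% were higher and 6.45% lower at that level. Growth factor receptors (23), lineage regulators (17) and cytokines (23) held no limma call either, with 2, 1 and 1 higher and 2, 0 and 4 lower genes at that level. Tnfrsf21 was the single call among 16 genes of the TNF receptor family, and Nmbr among 19 peptide and amine receptors of the G protein coupled family. The insulin-like growth factor list held 1 fall among 18, Igfbp2, and 4 more members were lower at an unadjusted p under 0.05. Among them were Igfbp5 and Igfbp3, 0.54 and 0.45 below WT (limma adjusted p = 0.16 and 0.32).

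Stag3 and Tex15, germ-line genes normally silent in somatic cells, rose by 0.63 and 0.57 out of 20 such genes (median 0.03, or 0.01 to 0.07 with any 1 array left out). Stag3 lost its call without WT array 1 or ∆G array 2 (limma adjusted p = 0.066 and 0.078), and Tex15 without any one of the 3 WT arrays, ∆G arrays 2 and 3 and null arrays 1 and 3 (up to 0.18, without WT array 2). Neither was called from the 6 arrays alone (limma adjusted p = 0.057 and 0.0745). Tex15 was not called with the Y-linked covariate (0.12), after median centring (0.0505), after repeated quantile normalisation (0.055), with the mean of probe sets (0.0502) or with a trend (0.052) either. Ifit2, an interferon-stimulated gene, rose by 0.56 and was not called without WT array 2 (limma adjusted p = 0.06), the single call in its list of 24. Of that list 19 were below 0, with a median of −0.12. At an unadjusted p under 0.05, 6 were lower (6.45% of all genes were), and 8 were lower without overlap (9.48% of all genes were).

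Macrophage and leukocyte markers varied between arrays. The 16 markers held no limma call, 2 were higher at an unadjusted p under 0.05, all 16 were above 0, and their median difference was 0.44, or 0.72 without ∆G array 3, 0.66 without WT array 1, 0.20 without ∆G array 1 and 0.16 without WT array 3. Their mean was 6.58, 6.16 and 5.47 on the WT arrays, 7.11, 6.61 and 5.86 on the ∆G arrays and 5.66 to 6.01 on the null arrays. Lyz2, a lysozyme of macrophages, ran from 6.25 to 8.84 in WT and from 7.35 to 9.99 in ∆G, and Csf1r, the receptor that defines the lineage, from 5.54 to 6.39 and from 5.72 to 7.39. Both genotypes thus had their highest level on array 1 and their lowest on array 3. The part of such cells in the calls was not tested.

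Crip1 and 8 more genes set ∆G apart from WT and null alike, a group picked after the values were seen by a call in both comparisons in the same direction. Crip1, which encodes a small LIM domain protein, had 9.64, 9.08 and 9.36 in WT, 10.54, 10.48 and 10.40 in ∆G and 9.63, 9.47 and 9.49 in null. It was 1.11 above WT and 0.95 above null (limma adjusted p = 0.0017 and 0.0011), and it kept its call against WT whichever array was left out. Eno3, the muscle form of enolase, had 7.82, 7.89 and 7.84 in WT, 8.69, 8.53 and 8.36 in ∆G and 7.74 to 8.01 in null (0.67 above WT, limma adjusted p = 0.0093), and kept its call likewise. Trim30a lay at 5.62 to 5.94 in WT, 6.30 to 6.63 in ∆G and 5.49 to 5.72 in null, and lost its call against WT without ∆G array 2 (limma adjusted p = 0.056). In these 3 genes the ∆G arrays lay above every other array.

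Kctd16, Ildr2, Slc2a4, Pcbd1 and Crybg3 were the other genes above both, by 0.62, 0.61, 0.60, 0.59 and 0.53 against WT, and Mrgprf was below both, by 0.54 on the log2 scale against WT. Slc2a4 encodes the insulin-regulated glucose transporter, and Mrgprf an orphan receptor. Each lost its call against WT without at least 2 of the single arrays. The highest limma adjusted p was 0.11 for Kctd16, 0.15 for Ildr2, 0.17 for Slc2a4, 0.064 for Crybg3 and 0.14 for Mrgprf, each without ∆G array 2, and 0.097 for Pcbd1 without WT array 2. Ildr2, Slc2a4 and Mrgprf were not called from the 6 arrays alone (limma adjusted p = 0.052, 0.10 and 0.083), nor Ildr2, Slc2a4 and Pcbd1 with the Y-linked covariate (0.10, 0.12 and 0.051), nor Slc2a4 after repeated quantile normalisation (0.0502). The part of the sex pattern, by which ∆G and null arrays differ throughout, and of the macrophage level in these genes was not tested.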

How the data were processed

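RNA of 9 cultures was hybridised to whole-transcript gene arrays, and the deposited values are log2 RMA signals made by the authors, per the submitters' processing notes, which name RMA and affy. The build is not given in the sources used here, and neither are versions and annotation. Of 35512 probe sets, 21789 had 1 gene symbol in the platform annotation, and 21698 of these matched RefSeq by gene ID. No further scaling was applied. One limma model (version 3.58.1, R 4.3.3) held a mean for each genotype over all 9 arrays, with eBayes, no trend, and 6 residual degrees of freedom. Benjamini-Hochberg adjustment ran over 19938 genes with a threshold of 0.05. Precision is limited by the few arrays. On simulated data with noise drawn independently for each gene, the model called 62.7% of 67 changes of 0.5 and 94% of 67 changes of 1. It also called 10 unchanged genes. Effects shared by the genes of an array were not simulated.

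Gene lists are described by counts and medians, without a set test. The members, lists and named genes were chosen with earlier results of these data known. Named were Rb1, the 20 largest calls each way, called list members and the 4 members of lowest p in each list, without predicted genes, clones, small RNAs and odour receptors. Genes named outside this rule were picked after their values were seen. Alternatives left out each array, used 6 arrays only, changed scaling, filter, probe set, prior or threshold, or added a replicate block or the Y-linked level.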

Additional observations from a re-analysis of the deposited data

How the results depend on the processing

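The counts of rises and falls against WT were 120 and 42. With the 6 ∆G and WT arrays alone they were 95 and 25, and at an adjusted p of 0.10 they were 211 and 114. Leaving out 1 of the 9 arrays gave 51 to 147 rises, 9 to 109 falls and 19 to 30 risen replication genes (29 in the main fit). Of the 162 calls, 58 were shared without WT array 2, 122 without ∆G array 3, 96 with the 6 arrays alone and 100 with the Y-linked level as a covariate. Median centring, repeated quantile normalisation, removal of the dimmest genes, the mean of all probe sets, a trend in the prior and the Y-linked level as a covariate gave 88 to 129 rises, 38 to 47 falls and 25 to 31 risen replication genes. No named gene changed direction past the threshold. Of the 203 named genes 73 were called. With the Y-linked level, 15 of those 73 lost their call and 4 other named genes gained one, and with 6 arrays 19 lost it and 2 others gained it. The share of risen genes with an E2F motif was 18.2% for the form TTTCCCGC alone, in place of 30.3% for 4 forms, a narrower search by construction. Deviations of same-numbered WT and ∆G arrays correlated at −0.03, 0.27 and 0.06, and those of arrays with different numbers at −0.21 to 0.14. These few values do not settle whether the numbers pair the samples, and the labels do not say so. With the replicate block there were 155 rises, 56 falls and 30 risen replication genes.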

Other observations

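The following groups were picked after their values were seen. Of the 72 rises that stood in no list, 6 are given here. All 6 have parts in DNA copying, repair or the cell cycle, so they do not stand for the other unlisted rises. Slc43a3, Herc6, Alad, Idh2, Prdx4 and Slc16a7 also rose, stood in no list and kept their calls whichever single array was left out. Tonsl, the partner of Mms22l, rose by 0.72 (6.15, 5.89 and 6.02 in WT, 6.63, 6.76 and 6.84 in ∆G, limma adjusted p = 0.0036). Dnajc9, a histone chaperone, rose by 0.91 (8.06, 7.85 and 7.89 against 8.82, 8.89 and 8.81), and Zgrf1, a helicase, by 0.66. These 3 kept their calls whichever single array was left out. Dtl, which directs the destruction of Cdt1 in S phase, rose by 0.81 and lost its call without WT array 2 or 3 (limma adjusted p = 0.10 and 0.061), from the 6 WT and ∆G arrays alone (0.066) and with the Y-linked covariate (0.057). Usp37, a deubiquitinase of cyclin A, rose by 0.66 and was not called without ∆G array 1 (limma adjusted p = 0.073) or from the 6 arrays alone (0.057). Ccp110, a centriole cap protein, rose by 0.74 (6.68, 6.77 and 6.76 against 7.40, 7.47 and 7.55, limma adjusted p = 0.0093) and kept its call.

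Of 22 measured beta protocadherins, adhesion molecules encoded by a cluster of similar genes, 4 fell, none rose and 20 were below 0, as were 11302 of all 19938 genes. Their median was −0.36, against −0.02 over all genes. The mean over the family was 5.78, 5.70 and 5.69 on the WT arrays and 5.43, 5.4 and 5.38 on the ∆G arrays. These signals are low: array medians lay between 6.33 and 6.401, and endothelial and epithelial markers had WT means of 5.82 and 5.65. The falls were Pcdhb22, Pcdhb3, Pcdhb16 and Pcdhb14, by 0.62, 0.59, 0.56 and 0.40 on the log2 scale, and each lost its call without at least 3 of the single arrays (limma adjusted p up to 0.18, 0.11, 0.14 and 0.15, the first and last without ∆G array 2 and the others without WT array 2). Pcdhb14 was not called from the 6 arrays alone (0.079), and with the Y-linked covariate neither Pcdhb14 nor Pcdhb22 was (limma adjusted p = 0.12 and 0.13), nor after median centring (0.052 and 0.058) or repeated quantile normalisation (0.065 and 0.06), nor Pcdhb14 with a trend (0.051). Probe sets of such near-identical genes can share signal, so the members are no independent counts.

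By the RefSeq table for GRCm38.p6, 5 of the 42 falls lie on chromosome 14, which also carries Rb1. They were Entpd4, Tmem260, Armh4, Slc7a8 and Mettl3, or 0.715% of 699 tested genes there against 0.211% of all genes. The share of falls was also above that of all genes on chromosome 18 (4 of 471, 0.849%) and on chromosome 10 (6 of 938, 0.64%). Falls within 1 cluster, such as those of the beta protocadherins, are no independent counts for a chromosome. The part of the position on a chromosome in these falls was not tested. Rises on chromosome 14 numbered 7 (1.0%, against 0.602%). The share of rises was larger on chromosome 16 (8 of 648, 1.23%) and on chromosome 1 (12 of 1122, 1.07%). Entpd4 and Tmem260 kept their calls in all 9 fits that left out 1 array, and Armh4, Slc7a8 and Mettl3 did not (limma adjusted p up to 0.15 without WT array 2, 0.095 without ∆G array 2 and 0.16 without ∆G array 2). From the 6 arrays alone those 3 were not called (limma adjusted p = 0.054, 0.062 and 0.097), nor Armh4 and Mettl3 with the Y-linked covariate (0.068 and 0.11). With the replicate block Armh4 was not called either (limma adjusted p = 0.058).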
